A study of Mus musculus with 17 samples.

Results

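The set described here holds genes of glycolysis and of the response to low oxygen. Of 40 genes listed, 35 have a probe set of their own on the array and were measured, among 22180 genes in all. Where a gene had several such probe sets, the brightest on average was taken. Aldoa and Ankrd37 share their probe sets with another symbol, Gpi1, Eno1 and Pfkfb1 are on no named probe set, and these 5 were not analysed here. The values are log2 expression values from 17 Affymetrix Mouse Gene 2.0 ST arrays, 2 for each of 8 sorted mouse cell populations and 1 for the early innate lymphoid progenitor (EILP). The marrow gave HSC, the blood stem cells, LMPP, early progenitors primed for the lymphoid fate, and CLP, which are committed further to it. It also gave EILP, NK (natural killer cells) and 2 kinds of common myeloid progenitor, flt3+ CMP and flt3- CMP, named for the receptor Flt3. The thymus gave ETP, its earliest T-cell progenitors, and the later DN3 thymocytes. Per the series' design text, all populations it lists (NK is not among them) were sorted from pooled long-term chimeras, B6 CD45.1 hosts given 900 rads and then marrow of TCF-1 GFP reporter donors, and used 12 weeks later. The labels used here name no further treatment or mutation, and the age of the animals is not given. The RNA was amplified before hybridization. The labels do not say whether the arrays of a population came from separate pools of animals. The p-values therefore rest on the spread between these samples alone, and that spread may be technical.

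Glycolysis turns glucose into pyruvate in the cytosol. Glucose enters through carriers of the Slc2a family, hexokinases trap it, phosphofructokinase commits it to breakdown, and lactate dehydrogenase turns pyruvate into lactate, which leaves through Slc16a carriers. Pyruvate dehydrogenase kinases (Pdk) hold pyruvate back from oxidation in the mitochondrion. When oxygen is low, the prolyl hydroxylases encoded by Egln1, Egln2 and Egln3 no longer mark the factors HIF-1 alpha and HIF-2 alpha (Hif1a, Epas1) for destruction, and these factors raise the transcription of many genes in this set. Blood stem cells in the marrow are known for a reliance on glycolysis, and dividing lymphocytes for a high flux through it.

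Defining markers lay highest where the labels put them for HSC (Slamf1 5.93, at most 4.39 elsewhere), NK (Ncr1 11.15, at most 5.67) and DN3 (Cd3e 10.11, at most 4.50). The 5 measured EILP markers, Tox, Zbtb16, Nfil3, Id2 and Ets1, were also high in NK or thymus, with Zbtb16 and Nfil3 highest in EILP at 6.26 and 6.70, and Tcf7 was not analysed here. The summed level (log2) of 5 measured CLP markers was 11.63 to 11.91 in CLP and 11.60 to 11.86 in DN3. That of 6 ETP markers was 10.28 to 10.38 in ETP and 11.40 to 11.57 in DN3. For 5 LMPP markers it was 11.80 to 12.14 in LMPP and 11.77 to 11.84 in ETP. These sums thus did not set CLP, ETP or LMPP apart. Within the CLP list, Igll1 (9.32, at most 4.67 elsewhere) and Ebf1 (7.30, at most 4.71) were highest in CLP. Il7r and Dntt were highest in DN3, and Flt3 in LMPP. The 6 CMP markers were highest in flt3- CMP, at 12.52 to 12.61, then in flt3+ CMP, at 12.04 to 12.08. Array medians lay between 4.45 and 4.62, and the median of all values was 4.54. The summed level of 8 neutrophil markers lay between 13.32 and 14.74 (log2) in the 13 marrow arrays, highest in EILP and CLP, and between 7.44 and 8.69 in the 4 thymus arrays. That of 5 measured red cell markers was 9.89 to 9.92 in CLP and EILP, 9.36 to 9.59 in flt3- CMP and at most 9.25 elsewhere. That of 9 measured cell division genes was 10.77 to 10.87 in ETP and 11.92 to 12.86 in the other populations. Y-linked transcripts were high in CLP, EILP and DN3 only (Eif2s3y 8.15 to 8.65, against at most 3.53), so differences between these and other populations cannot be told apart from this split.

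Tested over all 9 populations with a limma F test, 18 of the 35 measured genes differed, or 51.4%, beside 22.7% of all genes. Of the 35, 16 were called with their highest and lowest population means at least 1 log2 unit apart, beside 18.8% of all genes. Among called genes alone this is 16 of 18 in the set and 4179 of 5042 overall. By role, 3 of 4 glucose and lactate carriers passed, 2 of 3 hexokinases, 4 of 5 measured enzymes of upper glycolysis, 3 of 7 of lower glycolysis, 1 of 2 lactate dehydrogenases, 2 of 4 pyruvate dehydrogenase kinases, 1 of 5 genes of oxygen sensing and the hypoxia factors, and both other hypoxia targets measured. None of the 3 measured Pfkfb regulators passed (0 by limma, and 0 at an unadjusted p under 0.05). Of the 35, 31 had a mean above the median of all values, and Aldoc, Eno2, Pdk4 and Epas1 lay below it. No filter on low values was applied. With genes of a mean below that median left out, the same test called 4657 genes, against 5042 with them. The share of all genes thus includes dim genes, which were seldom called. The part of brightness in the higher share of the set was not tested.

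**Figure D1:**
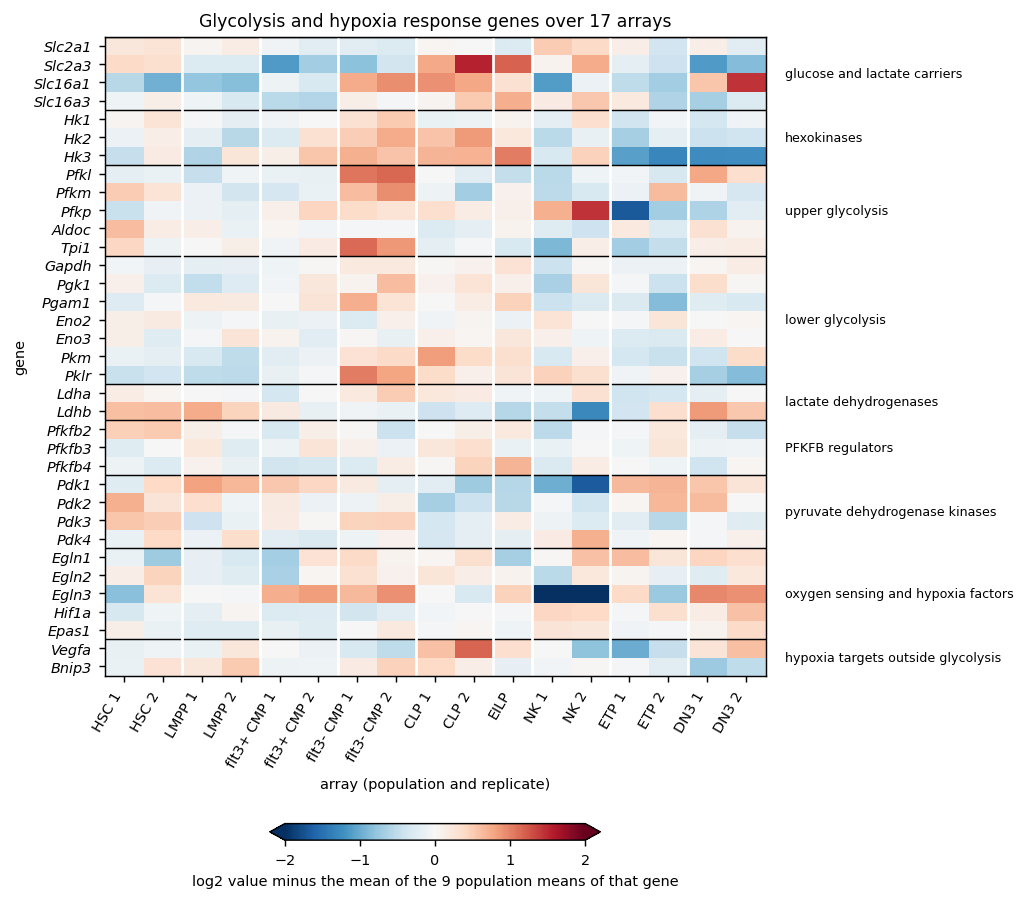
Difference of each log2 value from that gene's mean over the 9 populations (colour; red above, blue below), for 35 genes in rows by role and 17 arrays in columns. Egln3 is lowest in both NK arrays, at 4.75 and 5.10, and several glycolytic enzymes are highest in the flt3- CMP arrays.

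Egln3 spread most, with its population means 3.25 apart, and Slc16a1 and Pklr were each called in 4 of the 9 comparisons between populations described further on, the most of any member. Pfkl and Tpi1 followed each other across the populations (Pearson r = 0.84 over 9 population means), and Hk2 stood with Pkm (r = 0.87). These correlations describe the means and carry no test. To show what sequence stands before these genes, the 250 bases upstream of the start site are printed for the 5 of them with a single start in the RefSeq table (build GRCm38.p6), with capitals marking ACGTG or GCGTG on either strand. These letters are the core of the site that HIF factors bind. Hk2 lies at chr6:82774455-82774704 (minus strand), Slc16a1 at chr3:104638414-104638663 (plus strand), Egln3 at chr12:54203875-54204124 (minus strand), Pfkl at chr10:78009808-78010057 (minus strand) and Tpi1 at chr6:124814159-124814408 (minus strand).
Hk2: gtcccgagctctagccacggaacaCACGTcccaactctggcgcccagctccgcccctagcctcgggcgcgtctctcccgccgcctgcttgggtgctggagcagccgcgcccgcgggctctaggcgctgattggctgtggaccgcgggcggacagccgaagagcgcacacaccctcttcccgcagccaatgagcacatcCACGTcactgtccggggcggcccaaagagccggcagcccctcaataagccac
Slc16a1: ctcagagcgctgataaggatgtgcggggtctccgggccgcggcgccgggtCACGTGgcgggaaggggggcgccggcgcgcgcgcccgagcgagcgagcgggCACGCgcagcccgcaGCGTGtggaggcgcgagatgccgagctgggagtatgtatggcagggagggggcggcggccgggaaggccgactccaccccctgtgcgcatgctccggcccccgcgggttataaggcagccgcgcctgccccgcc
Egln3: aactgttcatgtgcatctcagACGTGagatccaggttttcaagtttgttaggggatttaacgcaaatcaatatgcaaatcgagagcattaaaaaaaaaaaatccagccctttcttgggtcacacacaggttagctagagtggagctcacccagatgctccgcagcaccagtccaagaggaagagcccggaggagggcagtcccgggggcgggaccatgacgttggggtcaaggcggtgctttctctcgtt
Pfkl: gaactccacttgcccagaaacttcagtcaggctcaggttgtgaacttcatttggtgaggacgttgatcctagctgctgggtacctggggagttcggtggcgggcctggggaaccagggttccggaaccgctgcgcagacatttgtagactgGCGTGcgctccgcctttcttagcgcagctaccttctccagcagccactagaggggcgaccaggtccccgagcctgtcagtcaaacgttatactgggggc
Tpi1: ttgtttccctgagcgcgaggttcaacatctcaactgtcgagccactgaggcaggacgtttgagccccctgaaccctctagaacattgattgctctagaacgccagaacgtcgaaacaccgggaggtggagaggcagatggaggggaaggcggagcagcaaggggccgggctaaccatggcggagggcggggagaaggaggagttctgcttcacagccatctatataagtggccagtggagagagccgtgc
Before the start site, ACGTG was found 2 times for Hk2, 2 times for Slc16a1, as both strands of 1 CACGTG, 1 time for Egln3 and 0 times for Pfkl and Tpi1. GCGTG was found 2 times for Slc16a1 and 1 time for Pfkl. Of the 35 measured genes, 33 are in the promoter table, with 48 windows of 300 bases, 250 before and 50 after a start. ACGTG on either strand was in 26 of these 48 windows, or 54.2%, and in 19.6% of all 32851 windows of the table. Either motif was in 79.2% of the windows of measured members and in 43.8% of all. The windows of the set were also richer in G and C, with a median of 60% against 52.7%, and in CG pairs, with a median of 16 against 7, and the part of base composition in these shares was not tested. The motif was not confined to genes that varied, as 11 of the 17 genes called in the F test had ACGTG in at least 1 window and 12 of the 16 others did. A match is a run of letters and not a shown binding site.

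Among the carriers, Slc2a3 and Slc16a1 varied most. Slc2a3 encodes GLUT3, a glucose carrier of high affinity. It was at 6.05 and 5.99 in HSC, 5.40 and 5.40 in LMPP, 4.54 and 4.98 in flt3+ CMP, 4.85 and 5.30 in flt3- CMP, 6.42 and 7.21 in CLP, 6.86 in EILP, 5.74 and 6.41 in NK, 5.48 and 5.27 in ETP and 4.53 and 4.80 in DN3. CLP and EILP were the highest populations and flt3+ CMP and DN3 the lowest, without overlap between these pairs (adjusted p of the F test = 3e-04). Slc16a1 encodes MCT1, which carries lactate and pyruvate across the membrane. It was at 5.59 and 5.19 in HSC, 5.37 and 5.29 in LMPP, 6.05 and 5.85 in flt3+ CMP, 6.89 and 7.08 in flt3- CMP, 7.06 and 6.92 in CLP, 6.45 in EILP, 5.04 and 6.02 in NK, 5.64 and 5.44 in ETP and 6.70 and 7.59 in DN3. Values were high in flt3- CMP, CLP and DN3 and low in HSC, LMPP and ETP (adjusted p = 9e-04), and the NK arrays lay far apart. Slc16a3 encodes MCT4, the lactate exporter of strongly glycolytic cells. It was at 5.34 and 5.55 in HSC, 5.34 and 5.12 in LMPP, 4.89 and 4.84 in flt3+ CMP, 5.55 and 5.41 in flt3- CMP, 5.48 and 5.95 in CLP, 6.16 in EILP, 5.6 and 5.98 in NK, 5.62 and 4.84 in ETP and 4.77 and 5.16 in DN3. EILP was above all other arrays, and the call (adjusted p = 0.042) was lost in 13 of 17 fits that each left out 1 array, with adjusted p from 0.0086 to 0.097 over the 17. Slc2a1, the gene of the broadly used glucose carrier GLUT1, ranged from 6.93 to 7.82 and did not pass (adjusted p = 0.1), though both NK arrays, at 7.82 and 7.70, were above all others. Its other probe set ranged from 3.34 to 3.85 and did not follow the first (r = -0.21 over 9 population means).

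Slc2a3 and Slc16a3 had the closest profiles of any pair among the 18 called genes (r = 0.89). Both had their 3 highest population means in EILP, CLP and NK, populations whose arrays also held the highest summed neutrophil markers, 14.57 to 14.74 for CLP and EILP together, beside 14.12 to 14.24 for NK. HSC and LMPP, at 13.96 to 14.08, were close to NK in these markers, and the part of neutrophil RNA in either profile was not tested. In bulk samples, fewer cells of a type and less RNA per cell cannot be told apart.

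Hexokinases differed in their profiles. Hk3, the isozyme typical of myeloid cells, was at 5.24 and 5.87 in HSC, 5.10 and 5.94 in LMPP, 5.81 and 6.26 in flt3+ CMP, 6.41 and 6.28 in flt3- CMP, 6.39 and 6.40 in CLP, 6.72 in EILP, 5.40 and 6.17 in NK, 4.61 and 4.40 in ETP and 4.44 and 4.47 in DN3. All 4 thymus arrays lay below all 13 marrow arrays, and EILP was the highest array (adjusted p = 0.00071). Neutrophil markers divide the arrays in the same way, with thymus low, and their part in this was not tested. Hk2, the inducible isozyme and a known HIF target, was at 5.66 and 5.91 in HSC, 5.58 and 5.22 in LMPP, 5.51 and 6.08 in flt3+ CMP, 6.27 and 6.52 in flt3- CMP, 6.35 and 6.62 in CLP, 5.98 in EILP, 5.23 and 5.63 in NK, 5.11 and 5.58 in ETP and 5.34 and 5.37 in DN3. CLP and flt3- CMP were high and ETP and DN3 were low (adjusted p = 0.008). Hk1, the constitutive isozyme, ranged from 5.77 to 6.69 and did not pass (adjusted p = 0.24).

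In upper glycolysis, the 3 isozymes of phosphofructokinase, the committing step, had different profiles. Pfkl, the liver type, was at 5.40 and 5.46 in HSC, 5.13 and 5.52 in LMPP, 5.46 and 5.44 in flt3+ CMP, 6.66 and 6.74 in flt3- CMP, 5.58 and 5.37 in CLP, 5.11 in EILP, 5.05 and 5.50 in NK, 5.54 and 5.27 in ETP and 6.37 and 5.93 in DN3. Both flt3- CMP arrays lay above all others, DN3 came next, and the other arrays stood between 5.05 and 5.58 (adjusted p = 0.001). Pfkp, the platelet type, was at 6.12 and 6.49 in HSC, 6.46 and 6.39 in LMPP, 6.68 and 7.0 in flt3+ CMP, 6.94 and 6.83 in flt3- CMP, 6.90 and 6.72 in CLP, 6.66 in EILP, 7.28 and 8.01 in NK, 4.88 and 5.87 in ETP and 5.95 and 6.35 in DN3. NK was highest and ETP lowest, with neither overlapping any other population, although the ETP arrays lay far apart (adjusted p = 0.0037). Pfkm, the muscle type, was at 5.24 and 5.01 in HSC, 4.63 and 4.37 in LMPP, 4.40 and 4.61 in flt3+ CMP, 5.36 and 5.67 in flt3- CMP, 4.64 and 4.04 in CLP, 4.83 in EILP, 4.21 and 4.44 in NK, 4.62 and 5.37 in ETP and 4.68 and 4.40 in DN3. It was highest in flt3- CMP, and ETP replicate 2 lay among those values. The F test gave adjusted p = 0.026, 0.062 without flt3- CMP replicate 1 and 0.12 without flt3- CMP replicate 2.

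Tpi1, which interconverts the triose phosphates, was at 7.84 and 7.33 in HSC, 7.44 and 7.54 in LMPP, 7.36 and 7.59 in flt3+ CMP, 8.56 and 8.29 in flt3- CMP, 7.23 and 7.39 in CLP, 7.12 in EILP, 6.52 and 7.56 in NK, 6.74 and 6.95 in ETP and 7.56 and 7.58 in DN3. As for Pfkl, both flt3- CMP arrays were above all others, and NK replicate 1 was the lowest array (adjusted p = 0.02, 0.13 without flt3- CMP replicate 1 and 0.073 without flt3- CMP replicate 2). Aldoc, an aldolase isozyme typical of brain, ranged from 3.83 to 4.86 and did not pass (adjusted p = 0.22).

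Pklr had the highest F statistic of the set. It encodes the pyruvate kinase of liver and red cells. Its values were 5.03 and 5.10 in HSC, 4.98 and 4.96 in LMPP, 5.34 and 5.44 in flt3+ CMP, 6.51 and 6.27 in flt3- CMP, 5.85 and 5.6 in CLP, 5.75 in EILP, 5.94 and 5.80 in NK, 5.42 and 5.58 in ETP and 4.83 and 4.61 in DN3. Both flt3- CMP arrays lay above all others and both DN3 arrays below (adjusted p = 5.6e-05). Summed red cell markers ran from 6.60 to 6.99 in DN3, from 9.36 to 9.59 in flt3- CMP and from 9.89 to 9.92 over the CLP and EILP arrays, and their part in the Pklr values was not tested. Pkm, the pyruvate kinase of most other cells, was at 8.83 and 8.76 in HSC, 8.65 and 8.45 in LMPP, 8.74 and 8.84 in flt3+ CMP, 9.24 and 9.34 in flt3- CMP, 9.79 and 9.32 in CLP, 9.27 in EILP, 8.65 and 9.05 in NK, 8.61 and 8.51 in ETP and 8.57 and 9.33 in DN3. CLP was the highest population and LMPP the lowest, and the call (adjusted p = 0.047) was lost in 11 of 17 fits without 1 array (adjusted p from 0.013 to 0.15). Pgam1, a phosphoglycerate mutase, was at 8.05 and 8.28 in HSC, 8.51 and 8.50 in LMPP, 8.30 and 8.57 in flt3+ CMP, 9.04 and 8.59 in flt3- CMP, 8.32 and 8.46 in CLP, 8.78 in EILP, 7.89 and 8.02 in NK, 8.03 and 7.45 in ETP and 8.07 and 8.01 in DN3. flt3- CMP and EILP were high and ETP was low (adjusted p = 0.016). A second Pgam1 probe set, between 4.69 and 5.47, did not show this (r = 0.12 over population means, adjusted p = 0.15).

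Gapdh, often taken as a reference gene, ranged from 10.52 in NK replicate 1 to 11.24 in EILP and did not pass (adjusted p = 0.3). Gapdh has many near-identical pseudogenes, 8 more probe sets list it beside another symbol, and its value is uncertain for that reason. Pgk1, an X-linked enzyme that makes ATP, ranged from 8.35 to 9.61 (adjusted p = 0.47). Eno2 and Eno3 ranged from 3.68 to 4.23 and from 5.38 to 5.93 (adjusted p = 0.74 and 0.56).

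Of the 2 lactate dehydrogenases, 1 passed, and they were not tested against each other. Ldhb, whose subunit is found in oxidative tissues, was at 6.90 and 6.92 in HSC, 7.04 and 6.74 in LMPP, 6.49 and 6.16 in flt3+ CMP, 6.23 and 6.17 in flt3- CMP, 5.89 and 6.04 in CLP, 5.73 in EILP, 5.83 and 5.02 in NK, 5.92 and 6.64 in ETP and 7.16 and 6.83 in DN3. DN3, HSC and LMPP were high, and NK replicate 2 was lowest (adjusted p = 0.0055). Ldha, the subunit of glycolytic tissues, was at 4.16 to 5.06, near the median of all values, and did not pass (adjusted p = 0.13).

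Among the regulators, Pfkfb2, Pfkfb3 and Pfkfb4, which set the level of the activator of phosphofructokinase, ranged from 5.14 to 6.19, 5.46 to 6.04 and 4.39 to 5.48. None passed (adjusted p = 0.15, 0.73 and 0.17). Within these ranges, both HSC arrays were above all others for Pfkfb2, at 6.14 and 6.19, and EILP was above all others for Pfkfb4, at 5.48. Pdk1, the kinase most closely tied to HIF-1, was at 8.53 and 9.17 in HSC, 9.58 and 9.44 in LMPP, 9.32 and 9.19 in flt3+ CMP, 8.95 and 8.60 in flt3- CMP, 8.54 and 8.06 in CLP, 8.2 in EILP, 7.80 and 7.10 in NK, 9.42 and 9.45 in ETP and 9.33 and 9.04 in DN3. LMPP, ETP, flt3+ CMP and DN3 were high, and both NK arrays were below all others (adjusted p = 0.00063). Its second probe set ranged from 5.94 to 7.19 and also passed (adjusted p = 0.003, r = 0.75 between the sets), with CLP, EILP and NK low alike, between 5.94 and 6.28. Pdk3, which is X-linked, was at 7.93 and 7.87 in HSC, above every other array, and at 7.82 and 7.84 in flt3- CMP, with the rest between 6.82 and 7.54 (adjusted p = 0.0056). Pdk2 ranged from 4.95 to 6.32 and Pdk4, which fasting and lipid signals raise, from 3.24 to 4.28, and neither passed (adjusted p = 0.084 and 0.31).

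Egln3, the oxygen sensor that low oxygen itself induces, had the widest range of the set. It was at 6.41 and 7.52 in HSC, 7.24 and 7.22 in LMPP, 7.98 and 8.07 in flt3+ CMP, 7.89 and 8.15 in flt3- CMP, 7.24 and 6.93 in CLP, 7.70 in EILP, 4.75 and 5.10 in NK, 7.63 and 6.5 in ETP and 8.2 and 8.15 in DN3. The NK arrays lay below every other array, DN3 had the highest mean, and the replicates lay apart in HSC and in ETP (adjusted p = 0.00026, and 0.0043 at most over the 17 fits without 1 array). Egln1, the main oxygen sensor, ranged from 6.11 to 7.44 and Egln2 from 5.63 to 6.72, and neither passed (adjusted p = 0.13 and 0.56). Hif1a ranged from 7.27 to 8.22, with NK, DN3 and ETP replicate 2 uppermost (adjusted p = 0.057). Epas1 was between 3.18 and 3.81, below the median of all values in every array (adjusted p = 0.2). HIF proteins are set mainly by their breakdown, which RNA levels do not show.

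Of the targets outside glycolysis, Vegfa, the endothelial growth factor, was at 5.84 and 5.89 in HSC, 5.85 and 6.21 in LMPP, 5.98 and 5.87 in flt3+ CMP, 5.68 and 5.47 in flt3- CMP, 6.57 and 7.15 in CLP, 6.32 in EILP, 6.0 and 5.17 in NK, 4.99 and 5.53 in ETP and 6.23 and 6.58 in DN3. CLP was highest and ETP lowest (adjusted p = 0.013). Bnip3, which acts in the removal of mitochondria, ranged from 4.70 to 5.94, with both DN3 arrays, at 4.70 and 4.92, below all others (adjusted p = 0.024, 0.12 without DN3 replicate 1 and 0.058 without DN3 replicate 2).

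**Figure D2:**
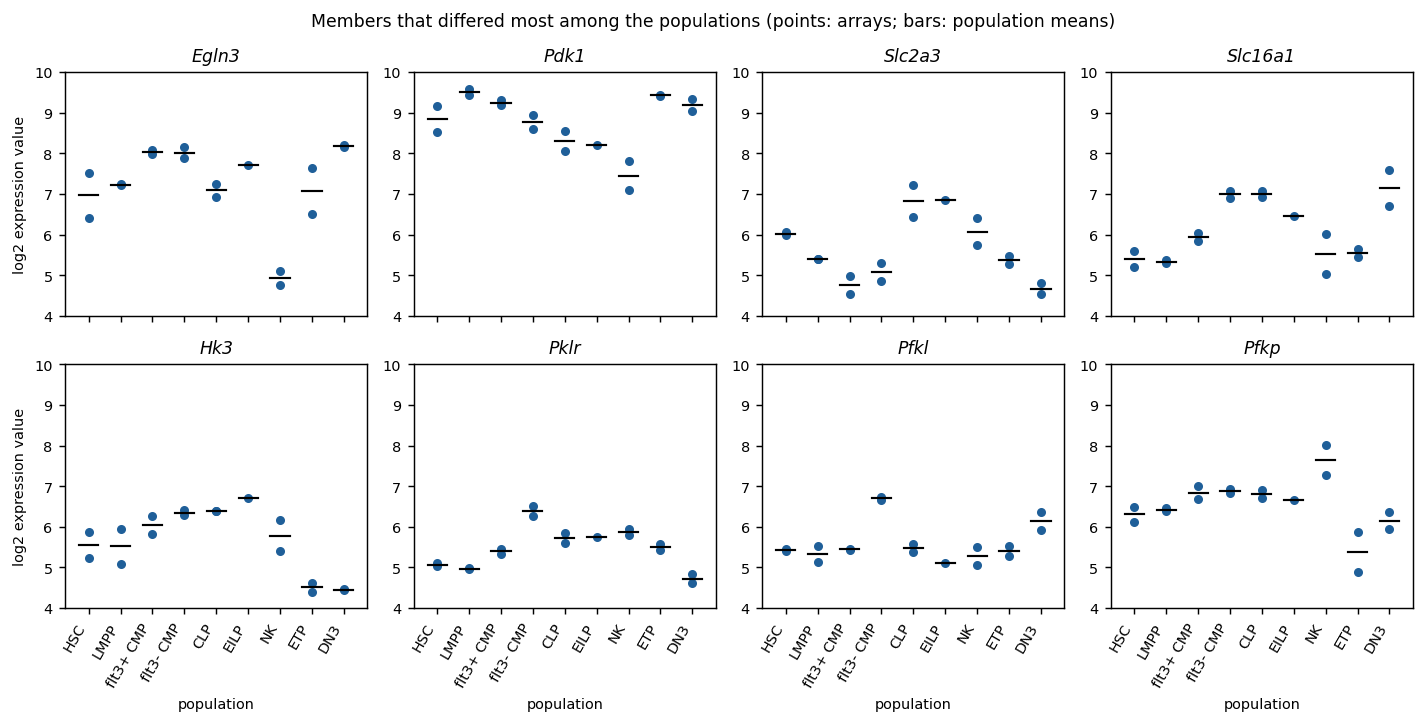
Log2 expression values (y axis) by population (x axis) for the 8 genes with the highest F statistics; points are arrays and bars are population means. Egln3 and Pdk1 are lowest in NK, Pfkl and Pklr highest in flt3- CMP, and Hk3 lowest in ETP and DN3.

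The step from HSC to LMPP had few calls over all genes (133 of 22180), so the count in this set says little. Of 35, 1 was called, beside 0.6% of all genes (0.275% higher, 0.325% lower), and it was lower in LMPP. Pdk3 fell by 0.80 ± 0.17 on the log2 scale (SE, n = 2 against 2, limma adjusted p = 0.049). That call was lost without any of the 4 arrays compared, with differences from -0.95 to -0.66 and adjusted p from 0.088 to 0.45. The median difference was -0.09 for the set and 0.01 for all genes. Slc2a3 at -0.62 and Pdk1 at 0.66 did not pass (adjusted p = 0.65 and 0.55).

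From HSC to flt3- CMP, 3 of 35 genes were higher and 0 lower, beside 2.4% and 1.82% of all genes, 4.22% in all (13 of the 35 had an unadjusted p under 0.05). Slc16a1 rose by 1.59 ± 0.30 (3.02-fold, adjusted p = 0.011), Pklr by 1.32 ± 0.15 (adjusted p = 0.00045) and Pfkl by 1.27 ± 0.20 (adjusted p = 0.0039), with no overlap between the arrays (n = 2 against 2). The calls of Pklr and Pfkl held without any 1 array. Slc16a1 lost its call without HSC replicate 2 (1.39), flt3- CMP replicate 1 (1.69) or flt3- CMP replicate 2 (1.5). Summed red cell markers were higher in flt3- CMP than in HSC (9.36 to 9.59 against 8.43 to 8.46, with 2 of 5 called higher), neutrophil markers were lower (13.45 against 13.99 to 14.07, with 2 of 8 called lower), and their part was not tested. Tpi1 at 0.85, Pgam1 at 0.65, Egln3 at 1.05 and Slc2a3 at -0.94 did not pass (adjusted p = 0.11, 0.1, 0.12 and 0.075).

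Between the 2 CMP populations, Pfkl and Pklr were lower in flt3+ CMP, by -1.25 ± 0.20 and -1.0 ± 0.15 (adjusted p = 0.037 for each, n = 2 against 2). No member was higher, and of all genes 0.0631% were lower and 0.0451% higher, 0.108% in all. The median difference was -0.29 for the set and -0.02 for all genes. Both calls rested on few calls in all (24 genes), and both were lost without any 1 of the 4 arrays and with each array centred on its median, where the differences were -1.22 and -0.97 (adjusted p = 0.061 and 0.051). Summed red cell markers were at 8.35 to 8.59 in flt3+ CMP and 9.36 to 9.59 in flt3- CMP, and their part was not tested. Pfkm at -1.01, Slc16a1 at -1.04 and Tpi1 at -0.95 did not pass (adjusted p = 0.17, 0.26 and 0.24).

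The step from LMPP to CLP had the most calls. Of 35 genes 5 were higher in CLP, beside 3.75% of all genes, and 1 was lower, beside 2.2%, or 5.96% in all. Both carriers Slc16a1 and Slc2a3 rose, by 1.66 ± 0.30 (3.17-fold, adjusted p = 0.0049) and 1.41 ± 0.27 (2.67-fold, adjusted p = 0.0071). Hk2 rose by 1.08 ± 0.23 (adjusted p = 0.013), Pkm by 1.0 ± 0.23 (adjusted p = 0.02) and Pklr by 0.75 ± 0.15 (adjusted p = 0.0099). Pdk1 fell by 1.21 ± 0.26 (adjusted p = 0.013), and by 0.55 ± 0.18 with its other probe set, without a call (adjusted p = 0.098). The arrays did not overlap for any of the 6 (n = 2 against 2). Slc16a1 kept its call without any 1 array. Slc2a3 lost it without CLP replicate 2 (1.02), and Hk2 without LMPP replicate 2 (0.90) or CLP replicate 2 (0.95). Pdk1 lost it without LMPP replicate 1 (-1.14), LMPP replicate 2 (-1.28) or CLP replicate 2 (-0.97). Pkm (1.10, 0.90 and 0.77) and Pklr (0.76, 0.74 and 0.62) lost it without LMPP replicate 1, LMPP replicate 2 and CLP replicate 1. Summed markers were higher in CLP than in LMPP for neutrophils (14.57 to 14.69 against 13.96 to 14.08), red cells (9.89 to 9.92 against 7.77 to 7.80) cell division (12.74 to 12.86 against 12.16 to 12.35), macrophages (9.50 to 9.52 against 8.46 to 8.82) and mature B and plasma cells (7.89 to 8.05 against 6.11 to 6.19). Called higher were 4 of 8, 5 of 5, 3 of 9, 3 of 7 and 3 of 5 genes of these lists, and their part was not tested. CLP and LMPP also lie on different sides of the split in Y-linked transcripts.

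No member was called between EILP and CLP by limma (0 called, 1 at an unadjusted p under 0.05), beside 0.365% of all genes, 0.325% lower and 0.0406% higher. With so few calls in all, this count says little about the set. The gene with the low unadjusted p was Egln1, at 6.15 in EILP and 6.86 and 7.14 in CLP (-0.85 ± 0.36, adjusted p = 0.52, n = 1 against 2). The median difference was -0.09 for the set and 0.05 for all genes. EILP was the highest array of all 17 for Hk3 at 6.72, Gapdh at 11.24, Slc16a3 at 6.16 and Pfkfb4 at 5.48, beside 5.89% of all genes for which this lone array was highest. With 1 array, a gene has only that single value in EILP, and the fit takes its spread from the other populations.

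Egln3 was the only member called between EILP and NK, at 7.70 in EILP and 4.75 and 5.10 in NK. It was higher in EILP by 2.78 ± 0.42 (6.86-fold, adjusted p = 0.0019, n = 1 against 2), beside 1.57% of all genes called higher, 1.91% called lower and 3.48% in all, and held the call without either NK array. Macrophage markers were higher in EILP than in NK (9.99 against 8.73 to 8.97, with 3 of 7 called), as were neutrophil markers (14.74 against 14.12 to 14.24, with 1 of 8 called), and their part was not tested. Another 12 genes had an unadjusted p under 0.05 without passing, among them Pgam1 at 0.83 and Slc2a1 at -0.72 (adjusted p = 0.1 for each).

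Against CLP, NK had 4 genes lower and 0 higher, beside 3.17% and 3.22% of all genes, 6.39% in all (11 of the 35 had an unadjusted p under 0.05). Egln3 fell by 2.16 ± 0.35 (4.48-fold, adjusted p = 0.0018), Slc16a1 by 1.46 ± 0.30 (adjusted p = 0.011), Vegfa by 1.28 ± 0.27 (adjusted p = 0.013) and Hk2 by 1.06 ± 0.23 (adjusted p = 0.015), with no overlap (n = 2 against 2). Egln3 held its call without any 1 array. Slc16a1 lost it without CLP replicate 1 (-1.39), CLP replicate 2 (-1.53) or NK replicate 1 (-0.97). Vegfa lost it without CLP replicate 2 (-0.99) or NK replicate 2 (-0.87), and Hk2 without CLP replicate 2 (-0.92) or NK replicate 1 (-0.85). Without CLP replicate 2, Egln3 was thus the 1 call left. Summed markers were lower in NK than in CLP for cell division (12.18 to 12.33 against 12.74 to 12.86, with 3 of 9 called lower), neutrophils (14.12 to 14.24 against 14.57 to 14.69, with 2 of 8) and macrophages (8.73 to 8.97 against 9.50 to 9.52, with 2 of 7). They were also lower for mature B and plasma cells (6.54 to 6.64 against 7.89 to 8.05, with 2 of 5 called lower and 1 higher) and red cells (9.11 to 9.25 against 9.89 to 9.92, with 0 of 5 called), and their part was not tested. Pfkp at 0.84, Pdk1 at -0.85 and Hif1a at 0.44 did not pass (adjusted p = 0.12, 0.072 and 0.19). The comparisons of NK with CLP and with EILP share the NK arrays, and CLP is also shared with the comparisons above.

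Between ETP and LMPP no member was called by limma (0, with 10 at an unadjusted p under 0.05), beside 3.42% of all genes, 1.02% higher and 2.4% lower. Pgam1 was at -0.77 ± 0.20, Pfkp at -1.04 ± 0.30 and Hk3 at -1.01 ± 0.30 (adjusted p = 0.063, 0.085 and 0.095). Summed neutrophil markers were lower in ETP than in LMPP (8.38 to 8.69 against 13.96 to 14.08, with 8 of 8 called lower). So were cell division genes (10.77 to 10.87 against 12.16 to 12.35, with 8 of 9 called lower), and the part of either list was not tested. Without LMPP replicate 1, ETP replicate 1 or ETP replicate 2, 1 member was called. From ETP to DN3, 3 genes were higher and 1 lower, beside 5.2% and 3.53% of all genes, 8.73% in all (n = 2 against 2). Slc16a1 rose by 1.61 ± 0.30 (3.04-fold, adjusted p = 0.0041), Vegfa by 1.15 ± 0.27 (adjusted p = 0.018) and Pfkl by 0.74 ± 0.20 (adjusted p = 0.035). Pklr fell by 0.78 ± 0.15 (adjusted p = 0.0054). Without DN3 replicate 2, only Pfkl was called, and Slc16a1 was at 1.16, Vegfa at 0.98 and Pklr at -0.67. Vegfa also lost its call without ETP replicate 1 (0.88), and Pfkl without ETP replicate 2 (0.61) or DN3 replicate 1 (0.52). Egln3 at 1.11 did not pass (adjusted p = 0.067). Cell division genes were lower in ETP, at 10.77 to 10.87 against 12.28 to 12.43 in DN3, with 9 of 9 called, and their part in these rises was not tested.

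**Figure D3:**
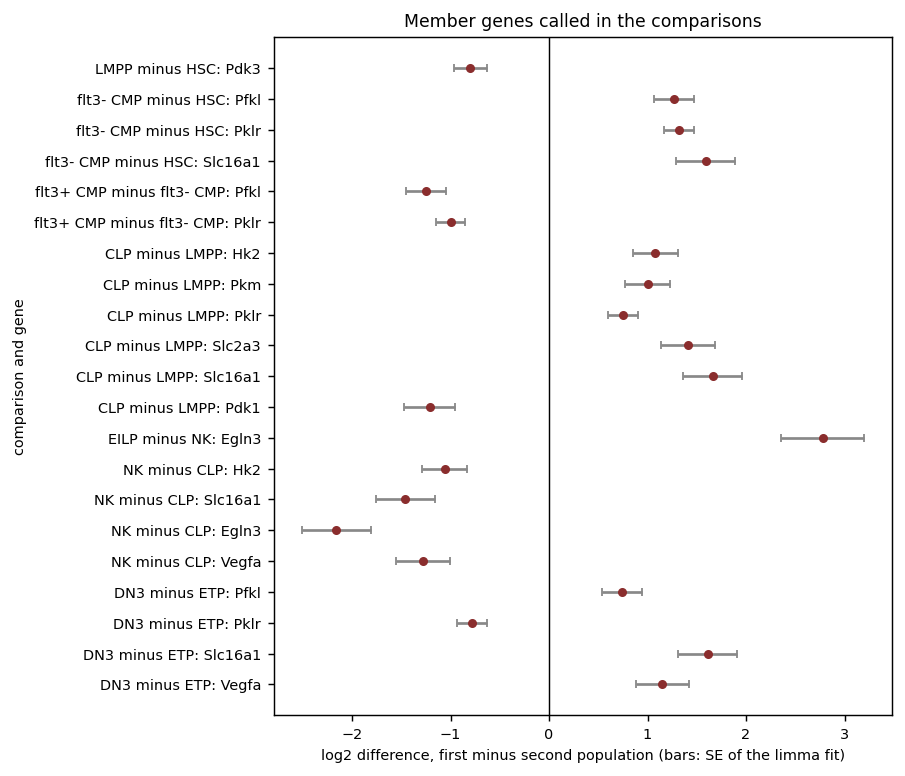
Log2 difference (x axis, first minus second population, bars show the SE of the limma fit) for the 21 calls among the 35 genes in 9 comparisons (y axis). The differences run from -2.16 for Egln3 in NK minus CLP to 2.78 for Egln3 in EILP minus NK, and the largest rises of Slc16a1 are 1.59 to 1.66.

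The flt3- CMP and ETP arrays stood at opposite ends for the glycolytic enzymes. Of 17 measured enzymes, from the hexokinases to the lactate dehydrogenases, 8 had their highest population mean in flt3- CMP (Hk1, Pfkl, Pfkm, Tpi1, Pgk1, Pgam1, Pklr and Ldha) and 0 their lowest. In ETP, 7 had their lowest (Hk1, Hk2, Pfkp, Tpi1, Pgam1, Eno3 and Ldha) and 0 their highest. Over all 22180 genes, flt3- CMP was the highest population for 13.0% and the lowest for 8.92%. ETP was the lowest for 10.8% and the highest for 16.9%. Pgam1 is counted at both ends, and its other probe set was neither highest in flt3- CMP nor lowest in ETP. The mean deviation of the 17 genes from their own means was 0.40 and 0.45 in flt3- CMP and -0.38 and -0.27 in ETP, and lay between -0.24 and 0.12 in the other arrays, while over all genes it stayed between -0.03 and 0.06. Pfkl, Tpi1 and Pklr were above all other arrays in both flt3- CMP arrays, beside 3.64% of all genes. Pfkp, Eno3 and Ldha were below all other arrays in both ETP arrays, beside 2.7% of all genes. Eno3 and Ldha did not pass the F test (adjusted p = 0.56 and 0.13). For Ldha, ETP replicate 2, at 4.203, was all but level with flt3+ CMP replicate 1, at 4.208. For Eno3, ETP replicate 1 was at 5.388 and HSC replicate 2 at 5.433. The counts and mean deviations given here carry no test. Summed cell division genes were at 10.77 to 10.87 in ETP, 12.30 to 12.43 in flt3- CMP and 12.74 to 12.86 in CLP. Red cell markers were at 7.08 to 7.53 in ETP and 9.36 to 9.59 in flt3- CMP. Neutrophil markers were at 8.38 to 8.69 in ETP and 13.45 in flt3- CMP. The part of these lists in the pattern was not tested. In HSC, the highest means were those of Aldoc, Eno2, Pfkfb2, Pdk2, Pdk3 and Egln2, 6 of 35 or 17.1%, beside 7.11% of all genes. Of these 6, only Pdk3 passed the F test, and the others had adjusted p from 0.084 to 0.74. Aldoc and Eno2 also lay below the median of all values. No member was lowest in HSC, beside 10.1% of all genes. Both HSC arrays were above all others for Pfkfb2 and Pdk3, beside 1.59% of all genes. In NK this held for Pfkp and Slc2a1, beside 4.46%, and both NK arrays were below all others for Pdk1 and Egln3, beside 2.24%. The other probe sets of Slc2a1 and Pdk1 did not show this. Both DN3 arrays were below all others for Pklr and Bnip3, beside 2.86%. They were also above all others for Egln3, beside 3.38%, though DN3 replicate 2, at 8.153, was all but level with flt3- CMP replicate 2, at 8.151.

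**Figure D4:**
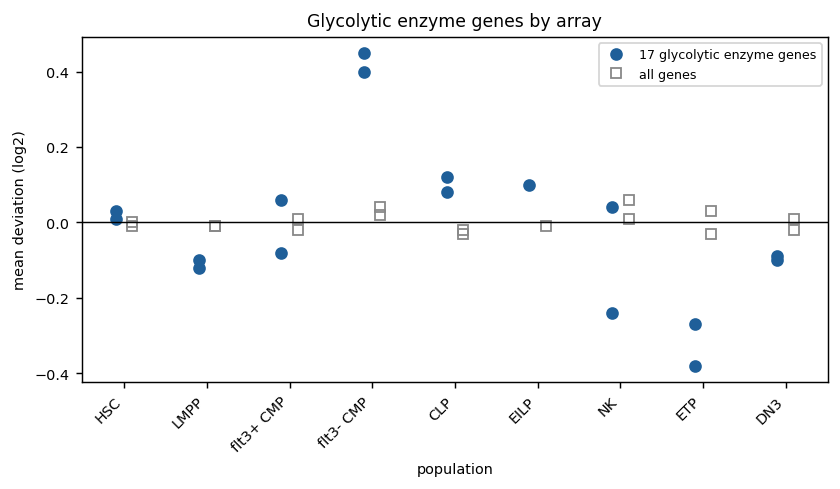
Mean deviation of 17 glycolytic enzyme genes (blue points) and of all genes (grey squares) from each gene's mean over the 9 populations (y axis, log2), for each array by population (x axis). The flt3- CMP arrays are highest at 0.40 and 0.45, and the ETP arrays lowest at -0.38 and -0.27.

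The NK arrays disagreed on these genes more than on others. Of 35 genes, 14 (40%) differed by more than 0.5 between the 2 NK arrays, against 18.5% of all genes. In all, 23 were higher in replicate 2, with a median difference of 0.38 for the set and 0.05 for all genes. Tpi1 was at 6.52 and 7.56, Slc16a1 at 5.04 and 6.02, and Pgk1 at 8.35 and 9.24, while Vegfa, at 6.0 and 5.17, and Ldhb, at 5.83 and 5.02, ran the other way. In ETP, 9 of 35 (25.7%) differed that much, beside 19.5% of all genes, with a median of 0.00, and in the other populations 1 to 6 did. Levels in NK are thus known less well than those in flt3- CMP, where Pgk1, at 9.06 and 9.61, was the 1 gene to differ by more than 0.5.

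**Figure D5:**
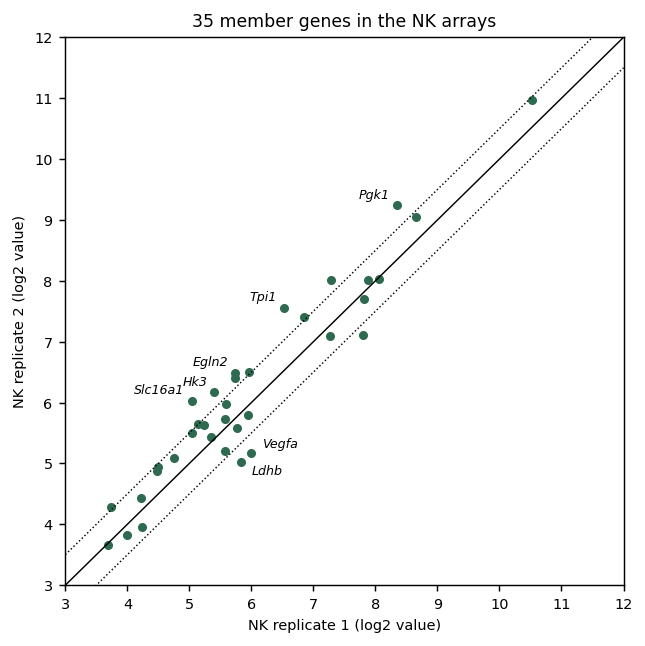
Log2 values of the 35 genes in NK replicate 1 (x axis) and replicate 2 (y axis); the solid line marks equal values and the dotted lines a difference of 0.5. Of the 35 genes, 23 lie above the solid line, with Tpi1, at 6.52 and 7.56, farthest from it.

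Genes beside the set, from lists of related steps, varied in the same test. Of 30 other measured genes of glucose use, 18 passed (60%), and of 31 other hypoxia response genes 12 did (38.7%), beside 22.7% of all genes. The 30 cover further glycolytic isozymes and carriers, pyruvate and glycogen use, glucose synthesis and the pentose phosphate route. Pygl, which frees glucose units from glycogen, had population means from 4.60 in DN3 to 9.19 in CLP. Pgd, of the pentose phosphate route, was at 8.65 in CLP, 8.93 in EILP and 6.41 in ETP. Car9, a carbonic anhydrase and a classic HIF target, was highest in LMPP at 7.51 and lowest in NK at 5.06, as was Pdk1 by its brighter probe set. The other Pdk1 probe set was highest in DN3, at 7.05 and 7.19. In NK it was at 5.94 and 6.28, on both sides of CLP and EILP. Ero1a, which acts in protein folding, was highest in EILP at 9.21 and lowest in ETP at 7.09. Plod2 and Bhlhe40, both raised by low oxygen in many cells, were highest in NK, at 5.57 and 6.99, where Egln3 was lowest. In CLP against LMPP, Car9 fell by 1.64 ± 0.26 (adjusted p = 0.0018) while Ero1a rose by 1.39 ± 0.30 (adjusted p = 0.013). CLP and LMPP lie on different sides of the split in Y-linked transcripts, and the cause of these changes was not tested. Of the 30 other genes of glucose use, 4 were higher and 1 lower in that step, beside 5.96% of all genes called, led by Pgd at 1.58 ± 0.33 (adjusted p = 0.011) and Pygl at 1.32 ± 0.19 (adjusted p = 0.001). Summed neutrophil markers were at 14.57 to 14.69 in CLP, 14.74 in EILP, 13.96 to 14.08 in LMPP and 7.44 to 8.69 in the thymus arrays. Their part in the values of Pygl, Pgd and Ero1a was not tested. From ETP to DN3, 6 of the 30 rose and 3 fell, beside 8.73% of all genes called, led by Rpia, of the pentose phosphate route, at 1.61 ± 0.27 (adjusted p = 0.0018), Slc16a7, a further monocarboxylate carrier, at -1.80 ± 0.25 (adjusted p = 0.00036) and Pygl at -1.78 ± 0.19 (adjusted p = 4.4e-05).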

How the data were processed

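The authors deposited log2 values, 1 per probe set and array; the log scale was read from the range of the values. The submitters' processing notes name Affymetrix Expression Console; the version and summary method were not given in the sources used here. Of 41345 probe sets, the array annotation gives 23521 a single gene symbol, 1814 several and 16010 none. Only the first kind was used, with the brightest probe set of each gene, for 22180 genes. limma 3.58.1 (R 4.3.3) was fitted to the 17 arrays together, each population with its own mean (8 residual and 5.33 prior degrees of freedom), so the lone EILP array is assumed to vary like the rest. A moderated F test compared the 9 populations, and 9 contrasts compared pairs. A call is a Benjamini-Hochberg adjusted p under 0.05, two-sided for contrasts, with the adjustment made over every gene within each test. Errors are SEs of the fit. A summed marker level is log2 of a list's summed unlogged values.

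Called genes with means at least 1 apart (F test) were given in every array, and called genes were named in each comparison. The members and lists were chosen with earlier results of these data known. The fit was tested on simulated data for 22180 genes: of 100 genes changed by 1 (log2), it recovered 75% for LMPP minus HSC and 43% for EILP minus CLP. Few arrays limit the precision, with a median SE of 0.20 and 0.24 in these comparisons. The alternatives tried are given with their effect in the closing section.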

Additional observations from a re-analysis of the deposited data

How the results depend on the processing

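No call among the 35 genes changed direction in any alternative run. Of the 21 calls in single comparisons, 18 were kept with each array centred on its median, 17 with quantile normalization, 20 without dim genes, 21 with the mean of each gene's probe sets, 15 with all probe sets tested, 18 with a trended and robust prior and 12 with only the populations compared in the fit. The F test called 18 genes, and 11 with all probe sets tested. For LMPP against HSC the count of 1 became 0 with centring, quantile normalization, no dim genes, all probe sets, the trended and robust prior, and only those populations. For flt3+ against flt3- CMP the count of 2 became 0 with centring, quantile normalization, all probe sets and only those populations, and 1 with the trended and robust prior. For flt3- CMP against HSC, 3 became 5, for NK against CLP 4 became 1, and for DN3 against ETP 4 became 2 with only the populations compared, and DN3 against ETP also had 2 with all probe sets. For ETP against LMPP, 0 became 2 with quantile normalization and 1 without dim genes. Apart from the smaller number of arrays or larger number of tests in some of these, the cause was not tested.

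Leaving out 1 array at a time gave 14 to 20 genes in the F test, 0 for LMPP against HSC (main 1), 2 to 3 for flt3- CMP against HSC, 0 for flt3+ against flt3- CMP (main 2), 3 to 4 for CLP against LMPP (main 6), 0 for EILP against CLP, 1 for EILP against NK, 1 to 4 for NK against CLP, 0 to 1 for ETP against LMPP and 1 to 5 for DN3 against ETP. Deviations of same-numbered arrays correlated between -0.07 and 0.09 over 28 pairs, so the numbers were not taken to pair the arrays. With the replicate number as a block, and without the EILP array, 17 of 20 calls were kept, and the counts were 17 in the F test, 0 for LMPP against HSC, 0 for flt3+ against flt3- CMP, 1 for ETP against LMPP, and within 1.5 times the main count elsewhere. Over all genes, with only the populations compared, 29 were called for LMPP against HSC (main 133), 7 for the CMPs (main 24), 0 for EILP against CLP (main 81), 125 for EILP against NK (main 772), 564 for NK against CLP (main 1418), 315 for ETP against LMPP (main 759) and 1083 for DN3 against ETP (main 1936). The CMPs had 9 with centring, 11 with quantile normalization, 1 with all probe sets and 6 with the replicate block. The other probe set of Pdk1, Gapdh, Pgam1, Slc2a1 and Hif1a, an alternative chosen after seeing the data, ended the F test's call for Pgam1 and the call of Pdk1 in CLP against LMPP.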
